A study of Mus musculus with 8 samples.

Results

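The 10 genes described here encode the ligands of the transforming growth factor β (TGF-β) pathway (Tgfb1, Tgfb2 and Tgfb3), its receptors (Tgfbr1 and Tgfbr2), its SMAD signal transducers (Smad2, Smad3, Smad4 and Smad7) and Tgfbi, a matrix protein induced by TGF-β. They were chosen by gene symbol, and each is 1 row of the 53247 genes in the deposited table. The table holds RNA-Seq values of tumor-associated macrophages (TAMs) in 8 samples, 4 from WT and 4 from miR-21 null (miR-21-/-) mice. All mice were C57/BL6, carried subcutaneous tumors grown from the mouse Lewis lung carcinoma line LLC, and were 10 weeks old when tumors were taken at 14 days. The null mice carried the germline allele Mir21atm1Yoli/J, so that every host cell lacked the microRNA, whereas the implanted LLC cells were the same in both genotypes. TAMs were sorted for CD45, CD11b, F4/80 and MHC class II, and the labels call the samples of a genotype biological replicates without saying how many mice each one holds. The first miR-21-/- sample has a title that joins 2 sample numbers and was counted as 1 replicate. The replicate numbers of the miR-21-/- samples follow the order of deposition and are not the numbers in their titles.

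TGF-β is secreted as a latent complex in which a propeptide shields the mature dimer, and it has to be released before it can signal. The active ligand binds the type II receptor TGFBR2, which phosphorylates the type I receptor TGFBR1, and TGFBR1 in turn phosphorylates SMAD2 and SMAD3. These join SMAD4 and enter the nucleus, where they induce target genes including Smad7, whose product inhibits the receptors. In macrophages TGF-β is known to restrain inflammatory activation and to support tissue-resident programs, and macrophages themselves are a source of TGF-β1 in tumors. TGFBR2, SMAD7 and TGFBI have been described as targets of miR-21 in other cells.

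miR-21 represses mRNAs that pair with its seed, bases 2 to 8 from its 5′ end, so its sequence and the matching sites of the 3 genes that passed the threshold given below are shown first. The mature miR-21a-5p lies on chr11:86584120-86584141 on the minus strand (RefSeq, GRCm38.p6), and its seed is in capitals:
miR-21a-5p: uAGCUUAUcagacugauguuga

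The sites are 25-base windows of annotated transcripts (GENCODE vM21, GRCm38), each in the 3′ UTR and the last exon. Capitals mark the bases that match the seed, in Tgfbi with an A after it. In the second Tgfbr1 site they mark a match to bases 2 to 7 only, with an A after it. They lie at chr13:56639170-56639194 (plus strand) for Tgfbi, at chr4:47412720-47412744 and chr4:47413326-47413350 (plus strand) for Tgfbr1, and at chr9:116090133-116090157 (minus strand) for Tgfbr2:
Tgfbi: gaaacggcatcactATAAGCTAtga
Tgfbr1, first site: gtatcacctgcttaaATAAGCTctt
Tgfbr1, second site: tgtcaataccctggtTAAGCTAgca
Tgfbr2: ggagactgtcatggcATAAGCTgtg

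Tgfbi holds the 8-base match, ATAAGCTA, 427 bases into a 3′ UTR of 601 bases. Tgfbr1 holds 2 matches of 7 bases in 4154 bases, and Tgfbr2 holds 1 in 6085 bases. Of the other members, Smad7 has 1 match of 8 bases and Smad2 has 1 of 7 bases, which lies beyond the end of Smad2 in the deposited table. No match of 6 or more bases was found in the longest annotated 3′ UTR of Tgfb1, Tgfb2, Tgfb3, Smad3 or Smad4. A match of 7 or 8 bases was present in 12.4% of 11449 genes that were tested and have a 3′ UTR in the annotation, and the 8-base match in 2.24%. Longer 3′ UTRs hold more matches by their length, and a match does not show that the site is used. Within the annotated 3′ UTRs, the matches of the genes that fell (Tgfbr1 and Tgfbr2) and of the gene that rose (Tgfbi) thus include the same 7 bases, ATAAGCT.

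**Figure D1:**
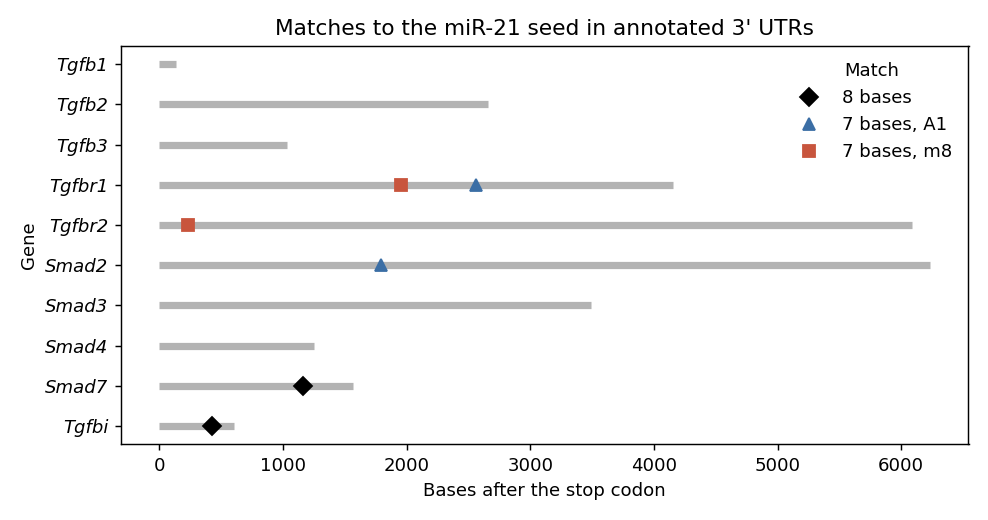
Annotated 3′ UTRs of the 10 genes drawn to scale (grey bars, bases after the stop codon) with the matches to the miR-21 seed. Diamonds mark the 8-base matches of Smad7 and Tgfbi, squares matches of 7 bases to seed bases 2 to 8 (m8), and triangles matches of 7 bases to seed bases 2 to 7 followed by an A (A1).

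The values are CPM, counts per 1e+06 reads. The steps between low values put the depth at 20.2 to 33.4 in units of 1e+06 reads, so that 3 reads were worth 0.0899 to 0.148 CPM. For the comparison of genotypes, log2(CPM + 1) was fitted with limma over the 13850 genes whose mean reached 1 per 1e+06 of a column's total, and p-values were adjusted over all of them by the Benjamini-Hochberg method. The threshold was that of the study, an adjusted p of 0.005 or less together with a change of more than 1.5-fold. All log2 fold changes are miR-21-/- over WT on the log2(CPM + 1) scale, which understates changes of low genes. The deleted gene, Mir21a, was listed at 0.0001 CPM, the value for no reads, in all 8 samples, so that it could not check the labels. Of the sorted markers, Ptprc (CD45), Itgam (CD11b), H2-Ab1 (MHC II) and Adgre1 (F4/80) were at 399 CPM or more in every sample. Adgre1 was at 542 to 583 CPM in WT and at 399 to 466 CPM in miR-21-/- samples, without overlap. 9 of the 10 members passed the filter on low values, and Tgfb2 did not.

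3 of these 9 members passed the threshold, against 7.12% of all tested genes. The members were chosen with earlier results of these data known, so that their counts are a description. Tgfbr1 and Tgfbr2, the receptors, fell in miR-21-/- TAMs (4.23% of all tested genes were called lower), and Tgfbi rose (2.89% were called higher). Higher genes made up 40.6% of all calls, and 60.3% after rescaling by the median of ratios or 59.3% after quantile normalization. The SMADs and the ligands did not pass. In 4 of the 10 members, Tgfbr1, Tgfbr2, Smad2 and Tgfbi, the values of the genotypes did not overlap, as in 35.1% of the tested genes. The median log2 fold change of the 9 members was -0.17, and that of all tested genes was -0.10.

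**Figure D2:**
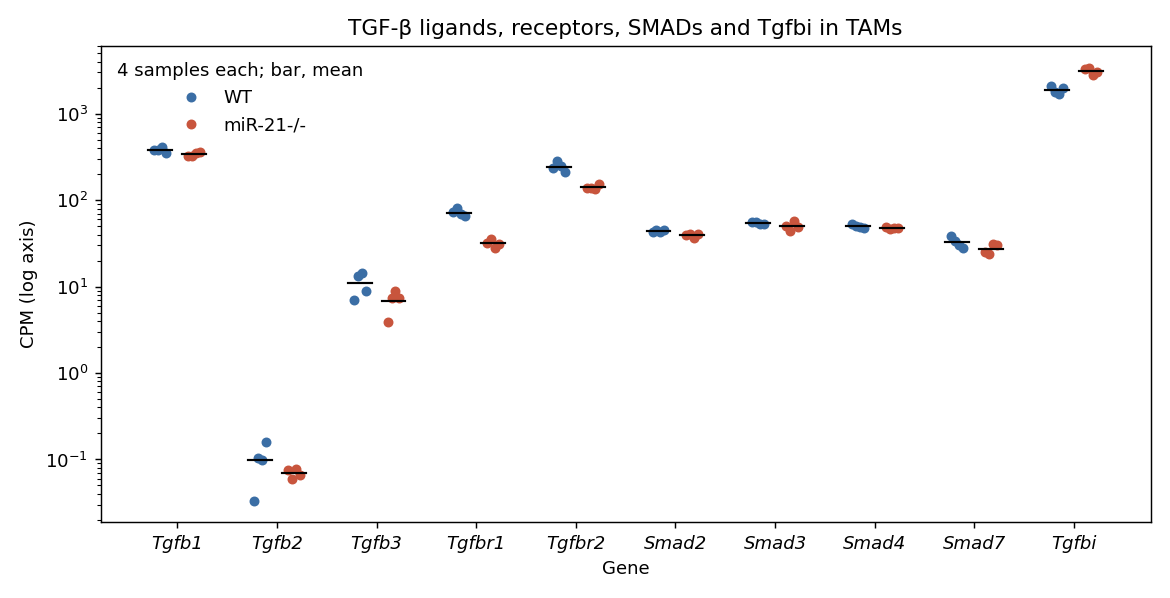
CPM of the 10 genes in each sample on a log axis, with WT samples in blue, miR-21-/- samples in red and a bar at the mean of 4. The miR-21-/- samples of Tgfbr1 (27.8 to 35.4 CPM) and Tgfbr2 (135 to 153 CPM) lie below all WT samples, those of Tgfbi (2829 to 3417 CPM) lie above, and Tgfb2 stays at or under 0.159 CPM throughout.

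Tgfbr1 (chromosome 4, 47353222 to 47414931, plus strand of GRCm38) encodes the type I receptor, the kinase that phosphorylates SMAD2 and SMAD3. It was at 72.9, 81.2, 68.8 and 64.8 CPM in WT samples 1 to 4 and at 32.1, 35.4, 27.8 and 30.8 CPM in miR-21-/- samples 1 to 4. Every miR-21-/- sample was thus under the lowest WT sample. The WT mean was 71.9 ± 7.02 CPM and the miR-21-/- mean 31.5 ± 3.15 CPM (SD, n = 4 each). The log2 fold change was -1.17 ± 0.087 (SE, limma adjusted p = 1.77e-05). Of the 13850 tested genes, 150 had a lower log2 fold change.

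Tgfbr2 (chromosome 9, 116084293 to 116175360, minus strand) encodes the type II receptor, which binds the ligand first. In WT samples 1 to 4 it was at 238, 281, 249 and 212 CPM, and in miR-21-/- samples 1 to 4 at 137, 140, 135 and 153 CPM. The groups did not overlap, and the miR-21-/- values lay closer together than the WT values. The WT mean of 245 ± 28.3 CPM compared with 141 ± 8.17 CPM in the null TAMs (SD, n = 4 each). On the log2 scale the change was -0.79 ± 0.082 (SE, limma adjusted p = 0.000133).

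Among the WT samples, replicate 2 was the highest and replicate 4 the lowest for both receptors. Tgfbr1 fell by more than Tgfbr2, to 0.438 of its WT mean against 0.576. Per kilobase of the longest protein-coding transcript, the level of Tgfbr2 was 2.32 to 2.57 times that of Tgfbr1 within the WT samples and 2.81 to 3.53 times within the miR-21-/- samples. These ratios are taken within samples, do not depend on the scaling between samples, and did not overlap between the genotypes. They were computed after the fold changes had been seen and were not tested. Both receptors passed the threshold in all 10 other settings of the fit and in all 8 fits that left out 1 sample, with a log2 fold change of -1.22 to -0.98 for Tgfbr1 and of -0.85 to -0.67 for Tgfbr2.

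Markers of other cell types differed between the genotypes. The sum of 9 fibroblast markers was 101, 71.9, 92.1 and 149 CPM in WT samples 1 to 4 and 12.9, 47.8, 17.0 and 13.7 CPM in miR-21-/- samples 1 to 4. On this list, 5 of 8 tested genes were called lower, against 4.23% of all tested genes. None of the 9 was at 0 in all samples. In such bulk samples fewer cells of a type and less RNA per cell cannot be told apart. Fibroblasts also express Tgfb3, Tgfbr1, Tgfbr2, Tgfbr3, the LTBP genes and the collagens, and their part in these differences was not tested. Fibroblasts lack CD45, for which the cells were sorted, and RNA of markers on this list was found in every sample. Within WT, the sample with the highest sum (replicate 4) had the lowest Tgfbr1 and Tgfbr2, and the sample with the lowest sum (replicate 2) the highest. Within miR-21-/-, the sample with the highest sum (replicate 2) had the highest Tgfbr1, 35.4 CPM, and replicate 4 the highest Tgfbr2. These orders of 4 samples per genotype are a description and were not tested.

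**Figure D3:**
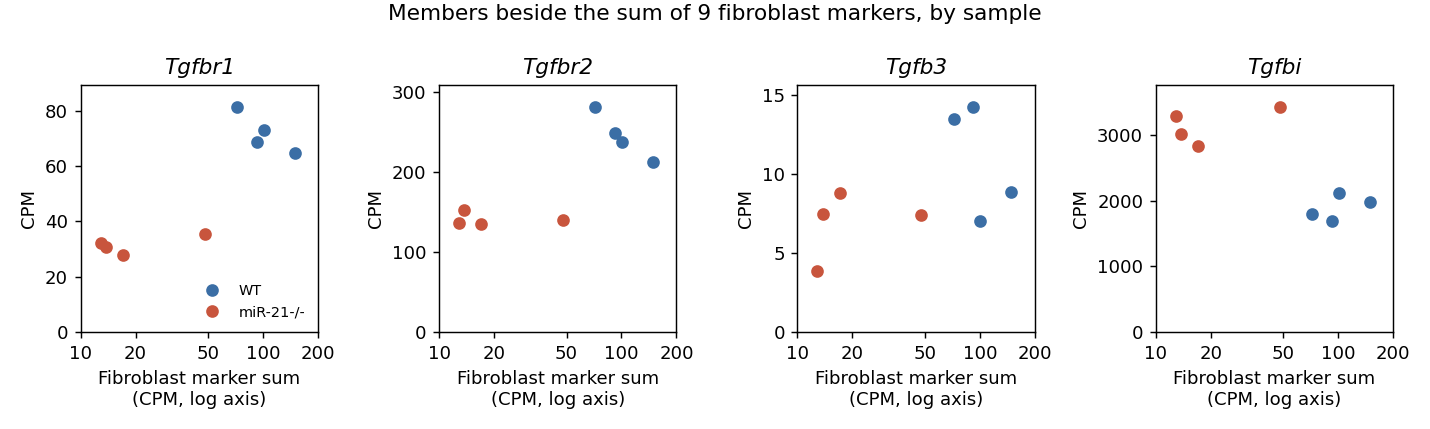
CPM of Tgfbr1, Tgfbr2, Tgfb3 and Tgfbi (vertical axes from 0) against the sum of 9 fibroblast markers (CPM, log axis) in each sample, with WT in blue and miR-21-/- in red. The fibroblast sum is 71.9 to 149 CPM in the WT samples and 12.9 to 47.8 CPM in the miR-21-/- samples, so that the sums of the genotypes do not overlap.

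Tgfbi (chromosome 13, 56609523 to 56639562, plus strand) encodes a secreted matrix protein that binds integrins and is abundant in monocytes and macrophages. It was at 2116, 1794, 1684 and 1975 CPM in WT samples 1 to 4 and at 3282, 3417, 2829 and 3007 CPM in miR-21-/- samples 1 to 4. The lowest miR-21-/- sample was above the highest WT sample. The WT mean of 1892 ± 192 CPM compared with 3134 ± 265 CPM in the null TAMs (SD, n = 4 each). On the log2 scale the change was 0.73 ± 0.10 (SE, limma adjusted p = 0.000670). Of all tested genes, 363 had a higher log2 fold change. It missed the threshold after quantile normalization, where its log2 fold change was 0.50, and with no filter on low values, where its adjusted p was 0.00647. Per kilobase of transcript, Tgfbi ranked 26 among the 11501 tested genes with a protein-coding transcript, whereas Tgfb1 ranked 243.

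**Figure D4:**
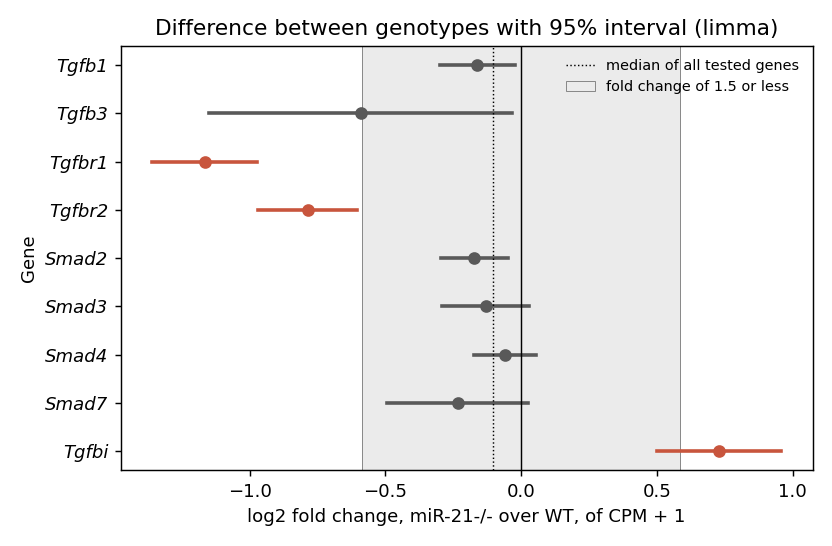
Log2 fold change of miR-21-/- over WT TAMs for the 9 members above the filter, with the 95% interval from limma as a line. Members past the threshold are red, the grey area spans fold changes of 1.5 or less, and the dotted line is the median of all tested genes (-0.10). Tgfbr1 and Tgfbr2 lie to its left, Tgfbi to its right, and the intervals of Smad3, Smad4 and Smad7 include 0.

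Among the ligands, Tgfb1 (chromosome 7, 25687002 to 25705077, plus strand) encodes the form made by most immune cells. Its values were 384, 384, 411 and 352 CPM in WT samples 1 to 4 and 328, 328, 356 and 356 CPM in miR-21-/- samples 1 to 4. WT replicate 4 lay within the range of the miR-21-/- samples, and the other WT samples lay above it. The log2 fold change was -0.16 with a 95% interval of -0.30 to -0.022 (adjusted p = 0.0691 from limma), which did not pass the threshold. The interval does not reach a fold change of 1.5 in either direction. Median-of-ratios scaling, a setting that moved the median of all tested genes by 0.10, left -0.044, and quantile normalization gave -0.24 (adjusted p = 0.0165 from limma). Without WT replicate 4 it was -0.20 (adjusted p = 0.0276 from limma), and over all alternatives the adjusted p ranged from 0.0165 to 0.606.

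Tgfb3 (chromosome 12, 86056745 to 86079041, minus strand), a ligand that is common in stromal cells, was at 7.02, 13.4, 14.2 and 8.83 CPM in WT samples 1 to 4. In miR-21-/- samples 1 to 4 it was at 3.84, 7.40, 8.79 and 7.43 CPM. The groups overlapped, with WT replicate 1 below 3 of the miR-21-/- samples. The log2 fold change of -0.59 had a wide 95% interval, from -1.15 to -0.032 (adjusted p = 0.0909 from limma), and did not pass. Without miR-21-/- replicate 1 it was -0.37, and without WT replicate 1 it was -0.76 (adjusted p = 0.0396 from limma). Over all alternatives the adjusted p from limma ranged from 0.00735 to 0.229. The lowest was that with the replicate number as a block, although these numbers pair no samples. Tgfb3 overlaps Ttll5 on the other strand without shared exon bases and the low-level Gm37804 with 163 shared bases, and whether counting used the strand is not stated. The fibroblast sum given above moved with the genotype in the same direction, and its part in the values of Tgfb3 was not tested. Per kilobase of transcript, Tgfb1 was 44.5 to 85.0 times as high as Tgfb3 within the WT samples and 62.9 to 133 times within the miR-21-/- samples.

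Tgfb2 (chromosome 1, 186622792 to 186705989, minus strand), the remaining ligand, was near the limit of detection. Its values of 0.033 to 0.159 CPM in WT and 0.060 to 0.077 CPM in miR-21-/- samples stood for 1 to 4 reads and for 2 reads per sample, 10 and 8 reads in all. A difference was not detectable at this depth (difference of -0.038 on the log2(CPM + 1) scale, exact permutation test, two-sided, p = 0.400), and no fold change is given. Without WT replicate 1, the sample with 1 read, p was 0.0286 by the same exact permutation test, the smallest p that it can give for these samples. Tgfb2 shares 124 exon bases with Gm29491 on the other strand.

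Smad2 (chromosome 18, 76241580 to 76305731, plus strand) and Smad3 (chromosome 9, 63646767 to 63757994, minus strand) encode the SMADs that the receptors phosphorylate. Smad2 was at 43.0, 45.5, 43.0 and 45.4 CPM in WT samples 1 to 4 and at 39.8, 40.1, 36.2 and 40.6 CPM in miR-21-/- samples 1 to 4, without overlap. Its log2 fold change was -0.17 with a 95% interval of -0.30 to -0.049 (adjusted p = 0.0351 from limma), which is under the fold change limit. With a limit of 0.05 on the adjusted p and none on the fold change, 4 of the 9 members were called, Smad2 in addition to the 3 above, as were 36.0% of all tested genes. 3 of these 4 members were lower, and 26.5% of all tested genes were called lower by that rule. Smad2 no longer reached 0.05 when samples were rescaled by the median of ratios (log2 fold change -0.058, adjusted p = 0.461 from limma) or after quantile normalization (-0.099, adjusted p = 0.196 from limma). Leaving out 1 sample gave an adjusted p of 0.0474 to 0.094, and over all alternatives in limma it ranged from 0.0291 to 0.461.

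Smad3 was at 56.5, 55.6, 53.5 and 52.9 CPM in WT samples 1 to 4 and at 49.7, 44.4, 56.9 and 49.0 CPM in miR-21-/- samples 1 to 4. The highest value of all was that of miR-21-/- replicate 3, and the other miR-21-/- samples were below the WT samples. The log2 fold change was -0.13 with a 95% interval of -0.29 to 0.031 (adjusted p = 0.185 from limma). It was -0.076 without miR-21-/- replicate 2, -0.19 (adjusted p = 0.0441 from limma) without replicate 3 of that group, and -0.015 with the median of ratios.

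Smad4 (chromosome 18, 73639009 to 73703780, minus strand) encodes the partner shared by the TGF-β and BMP pathways. It was at 52.7, 50.1, 49.0 and 47.0 CPM in WT samples 1 to 4 and at 48.6, 46.6, 47.5 and 48.0 CPM in miR-21-/- samples 1 to 4. 3 of the 4 miR-21-/- values lay within the range of WT. The log2 fold change was -0.058 with a 95% interval of -0.17 to 0.055 (adjusted p = 0.403 from limma), and its sign turned under quantile normalization and under median-of-ratios scaling.

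Smad7 (chromosome 18, 75367529 to 75395935, plus strand), the inhibitory SMAD, was at 38.9, 33.3, 29.9 and 27.9 CPM in WT samples 1 to 4. In miR-21-/- samples 1 to 4 it was at 25.0, 23.7, 31.0 and 30.2 CPM. Replicates 3 and 4 of the miR-21-/- group were above WT replicates 3 and 4, and replicates 1 and 2 were below all WT samples. With a log2 fold change of -0.23 and a 95% interval of -0.49 to 0.025 (adjusted p = 0.141 from limma), it did not pass. The value was -0.15 without WT replicate 1, -0.14 under quantile normalization and -0.12 with the median of ratios. The interval leaves room for a decrease to 0.711 or a 1.02-fold increase.

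Seen against Smad4 within the same samples and per kilobase of transcript, Tgfbr1 was at 0.810 to 0.952 of Smad4 in WT and at 0.343 to 0.447 in miR-21-/- TAMs. Tgfbr2 was at 1.89 to 2.34 times Smad4 in WT and at 1.17 to 1.34 times in miR-21-/- TAMs. Neither pair of ranges overlapped. The level of Smad7 relative to Smad4 was 0.469 to 0.584 in WT and 0.402 to 0.516 in miR-21-/- TAMs, and these ranges overlapped.

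The genes around the members were taken from 6 lists written from general knowledge of the pathway but with earlier results of these data known, with 107 distinct genes, so that their counts are a description. Of the 79 that passed the filter, 19 (24.1%) passed the threshold, of which 7 were higher and 12 lower in the null TAMs, against 7.12% of all tested genes. The 79 had a median of -0.12 on the log2 scale. For the counts of each list below, the shares of all tested genes were 2.89% called higher and 4.23% called lower. The count was 7 with no filter on low values, 12 without WT replicate 2, 11 without WT replicate 3 and 12 without miR-21-/- replicate 1. Ltbp3, Ltbp4, Thbs1, Acvr2b, Gdf3, Col1a1, Col3a1 and Gas6, all named in the following, each lost the call in at least 5 of the 8 fits that left out 1 sample. Of these, Ltbp4, Acvr2b, Col1a1 and Col3a1 also lost it in both rescalings, and Thbs1 and Ltbp3 under quantile normalization.

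**Figure D5:**
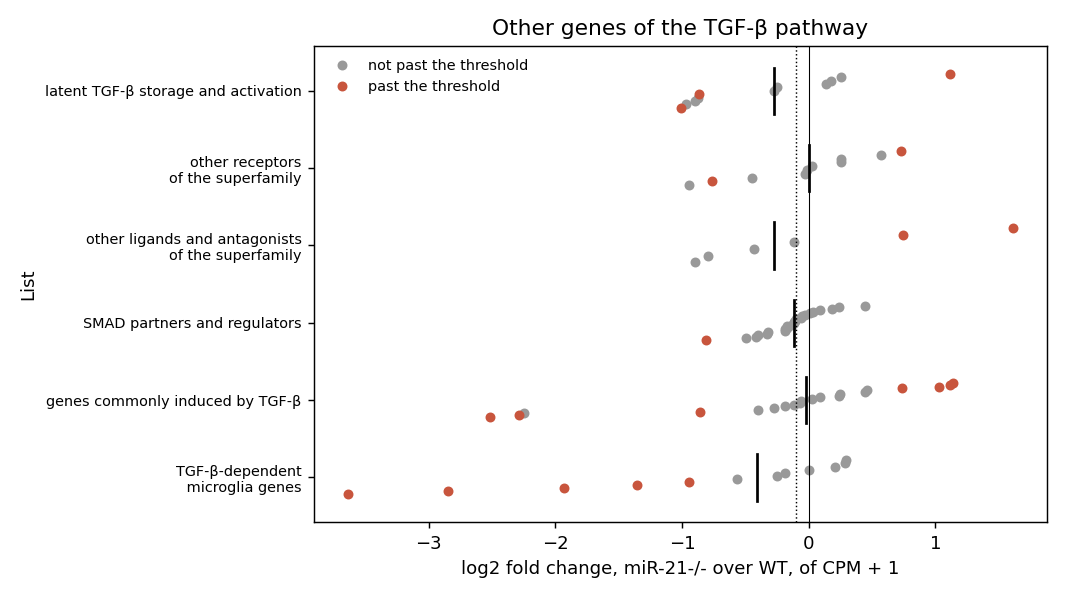
Log2 fold change of miR-21-/- over WT TAMs for each tested gene of the 6 lists (1 point per gene; red, past the threshold; grey, not past it), with a black bar at the median of each list and a dotted line at the median of all tested genes (-0.10). The genes known to depend on TGF-β in microglia have the lowest median (-0.41), and the SMAD partners and regulators lie mostly near the dotted line.

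Latent TGF-β is held in the matrix by LTBP proteins and on cells by other carriers, and is released by integrins, proteases and thrombospondin. Of 11 tested genes of storage and activation, 1 rose and 2 fell, and 8 did not pass. Thbs1, which encodes thrombospondin 1, an activator of latent TGF-β, rose from 1230 ± 354 to 2631 ± 613 CPM (log2 fold change 1.12, adjusted p = 0.00328 from limma). Ltbp4 fell from 8.78 ± 1.68 to 3.93 ± 1.12 CPM (-1.01, adjusted p = 0.00268 from limma), and Ltbp3 from 17.7 ± 3.63 to 9.18 ± 1.45 CPM (-0.86, adjusted p = 0.00191 from limma). Fibroblasts express both LTBP genes, and their part was not tested. Nrros, named after its values were seen, encodes the carrier that presents latent TGF-β1 on myeloid cells. It was at 376 to 402 CPM in WT and at 312 to 341 CPM in miR-21-/- TAMs (log2 fold change -0.27, adjusted p = 0.00303 from limma), without overlap but under the fold change limit. The median of ratios left -0.16 for Nrros (adjusted p = 0.0515 from limma), and quantile normalization gave -0.34 (adjusted p = 0.00111 from limma).

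Among 10 tested genes of the other receptors of the superfamily, 1 rose, 1 fell and 8 did not pass. Eng, which encodes endoglin, a co-receptor for TGF-β and BMP ligands, was at 32.0, 29.1, 38.7 and 34.3 CPM in WT samples 1 to 4 and at 54.1, 55.5, 52.8 and 61.3 CPM in miR-21-/- samples 1 to 4. It rose by 0.73 ± 0.086 on the log2 scale (SE, limma adjusted p = 0.000266), opposite in direction to both TGF-β receptors. The fold limit kept out Acvrl1, named after its values were seen, which encodes the type I receptor ALK1 that signals with endoglin (75.7 ± 8.72 and 113 ± 9.20 CPM, log2 fold change 0.57, adjusted p = 0.000940 from limma). It passed after rescaling with the median of ratios (0.69) and with quantile normalization (0.62). Acvr2b, an activin receptor, fell from 3.04 ± 0.809 to 1.35 ± 0.237 CPM (-0.77, adjusted p = 0.00363 from limma). The lowest value of the list was that of Tgfbr3, the co-receptor betaglycan, with 18.1 ± 3.64 and 9.29 ± 3.47 CPM (-0.94, adjusted p = 0.0148 from limma), which did not pass.

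Of 18 other ligands and antagonists, 6 passed the filter, and 2 of these rose. Inhba, which encodes the activin A subunit, another ligand that signals through SMAD2 and SMAD3, was at 3.26 to 6.35 CPM in WT and at 11.9 to 27.5 CPM in miR-21-/- TAMs (log2 fold change 1.61, adjusted p = 0.000833 from limma). Inhba lost the call with no filter on low values (adjusted p = 0.00714 from limma). Gdf3 rose from 19.9 ± 3.12 to 34.2 ± 7.32 CPM (0.74, adjusted p = 0.00351 from limma). Gdf15 was the lowest gene of this list, at -0.90 on the log2 scale, which did not pass (adjusted p = 0.0949 from limma). Its WT samples ran from 1.63 to 9.94 CPM, and leaving out 1 sample gave -1.27 to -0.58.

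Of 24 tested SMAD partners and regulators, 1 fell and 23 did not pass, with a median log2 fold change of -0.11. With the limit of 0.05 and none on the fold change, 2 were higher and 6 lower, where 36.0% of all tested genes were called and 26.5% were lower. The gene that fell was Smad5, a SMAD of the BMP branch, at 43.7, 55.1, 48.1 and 46.0 CPM in WT samples 1 to 4 and at 27.0, 25.8, 26.7 and 28.3 CPM in miR-21-/- samples 1 to 4. It changed by -0.81 ± 0.073 on the log2 scale (SE, limma adjusted p = 5.62e-05), and it passed in all alternatives. Tgif1, a repressor of SMAD-driven transcription, had the highest value of the list, 0.44, with 63.8 ± 3.18 CPM in WT against 87.0 ± 5.86 CPM without miR-21 (adjusted p = 0.000642 from limma), under the fold change limit.

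Genes commonly induced by TGF-β did not move in 1 direction. Of 20 tested, 4 rose, 3 fell and 13 did not pass, and the median was -0.020. Tgm2, which encodes transglutaminase 2 and is also induced by other signals in macrophages, rose from 454 ± 38.8 to 1001 ± 89.2 CPM (log2 fold change 1.14, adjusted p = 1.73e-05 from limma). Thbs1, given above, is also on this list. The largest decreases were those of the collagen genes Col3a1, from a WT mean of 36.4 ± 15.5 CPM to 2.65 to 18.3 CPM (-2.51, adjusted p = 0.00344 from limma), and Col1a1, from 22.7 ± 8.80 to 4.53 ± 4.38 CPM (-2.29, adjusted p = 0.00464 from limma). Both collagens are defining genes of fibroblasts and were on the fibroblast list, whose sum fell alongside, and the part of these cells was not tested. The other gene that fell, Tsc22d1 (-0.86, adjusted p = 0.000292 from limma), was not on the fibroblast list. It was named after its values were seen, and its call was not followed in the other settings.

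The last list holds genes that are known to depend on TGF-β in microglia, the macrophages of the brain. Of its 12 tested genes, 5 fell, none rose and 7 did not pass, with a median log2 fold change of -0.41. Among all tested genes, 4.23% were called lower and 2.89% higher, and the median was -0.10. Cx3cr1, the fractalkine receptor, fell from 47.8 ± 21.4 to 2.69 ± 0.666 CPM (-3.64, adjusted p = 1.63e-05 from limma), and Fcrls, an Fc receptor-like gene of macrophages, fell from 97.9 ± 38.4 to 12.5 ± 4.69 CPM (-2.85, adjusted p = 0.000247 from limma). Gas6, a bridging molecule for the uptake of dead cells, fell from 155 ± 63.4 to 37.4 ± 9.66 CPM (-1.93, adjusted p = 0.00163 from limma). Gpr34, a lysophospholipid receptor, was at 16.1 to 29.6 CPM in WT and at 6.75 to 9.62 CPM in miR-21-/- TAMs (-1.35, adjusted p = 0.000351 from limma). Tmem119 was the highest of the list, with 3.96 ± 1.98 and 4.99 ± 1.89 CPM (0.30, adjusted p = 0.442 from limma), and leaving out 1 sample gave 0.14 to 0.54.

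The other lists gave these sums. The sum of 5 B cell markers was 11.4 to 17.6 CPM in WT and 3.84 to 11.3 CPM in miR-21-/- samples, and that of 6 neutrophil markers 471 to 853 and 357 to 503 CPM. T and NK cell markers summed to 16.6 to 28.8 and 16.3 to 55.4 CPM, dendritic cell markers to 14.4 to 26.6 and 20.4 to 45.6 CPM, endothelial markers to 153 to 304 and 203 to 292 CPM, and epithelial markers to 18.8 to 24.8 and 12.7 to 17.9 CPM. Only the B cell and epithelial sums of these did not overlap between the genotypes. Of 5 tested neutrophil markers, none passed the threshold, 1 had a positive log2 fold change, and the median was -0.52. With a limit of 0.05 on the adjusted p and none on the fold change, 4 of them were lower, as were 26.5% of all tested genes. Platelets, which are rich in TGF-β1, have the marker Pf4, which macrophages also express. The platelet list summed to 166 to 363 CPM in WT and to 219 to 391 CPM in miR-21-/- samples, and 2 of its 6 genes, Pf4 and Ppbp, passed the filter. The 10 macrophage markers summed to 11895 to 13336 CPM in WT and to 12760 to 15431 CPM in miR-21-/- samples, and Lyz2, the highest of them, made up 3367 to 5332 and 4837 to 7295 CPM of these sums. Of the 10, 4 had a positive and 6 a negative log2 fold change, and the following were named after their values were seen. Fcgr1, an Fc receptor and the one marker of the list past the threshold, was at 230 to 305 CPM in WT and at 411 to 518 CPM in miR-21-/- samples (0.75, adjusted p = 0.000561 from limma), without overlap. Csf1r, the receptor for CSF-1, was at 1108 to 1474 CPM in WT and at 866 to 1044 CPM in miR-21-/- samples (-0.48, adjusted p = 0.00538 from limma), without overlap.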

How the data were processed

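RNA-Seq of sorted TAMs was deposited as 1 table for 8 samples. The authors deposited CPM values with 0.0001 added to each, normalized with Partek. The submitters' processing notes name STAR, Partek 7.0 and mm10. The counting rule and strand setting are not given in the sources used here. Gene starts are the same in GENCODE vM21 for 97.1% of genes found there. Ends are given as the deposited end minus 1. Smad2 extends past its deposited end there, so no level per kilobase is given for it. Values up to 20 reads were whole reads, within 0.02 of a read, in 73.8% to 74.6% of cases, so no count test was run. log2(CPM + 1) was fitted with limma 3.58.1 in R 4.3.3 (eBayes with trend) over 13850 genes and tested on simulated data. Replicate numbers follow the order of deposition and pair no samples. Named genes are the members, up to 4 called genes per list with the largest changes, and the highest and lowest of each list. Members and lists were chosen with earlier results of these data known. Alternatives were other pseudocounts, filters, scalings, weights, thresholds, the replicate block and left-out samples. P-values measure the spread between samples, which may be in part technical. Figures were drawn with matplotlib 3.10.9.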

Additional observations from a re-analysis of the deposited data

Results flagged for a closer look

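The groups looked at were those of the members and of the named genes of the pathway lists in each genotype, without Nrros, Acvrl1 and Tsc22d1. Among these 58 groups of 4 samples, 2 held a sample far from the other 3, and chance gives about 1 in 20. Col3a1 was at 18.3 CPM in miR-21-/- replicate 2, against 2.65 to 3.76 CPM in the other miR-21-/- samples. Acvr2b was at 0.992 CPM in miR-21-/- replicate 4, against 1.44 CPM or more in the others. No member had such a sample in either genotype.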

How the results depend on the processing

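The count of 3 members past the threshold was 3 or 2 in the other settings of the fit and stayed at 3 whichever of the 8 samples was left out. Tgfbi was the member lost, with no filter on low values and after quantile normalization. With an adjusted p of 0.05 and no fold change limit, 4 members, 39 of the other pathway genes and 4982 of all tested genes were called. Over all tested genes the count of 986 became 452 with a pseudocount of 10 and 515 with no filter, and ranged from 684 to 1002 without 1 sample. The median of ratios gave 60.3% of the calls as higher, against 40.6%. The count of 19 other pathway genes was 7 with no filter, and ranged from 11 (without WT replicate 3) to 16 (without WT replicate 4) when 1 sample was left out. The sign of Smad4 turned with quantile normalization (0.014) and the median of ratios (0.057). Tgfb2, with 1 to 4 reads per sample, kept its sign, with a difference of -0.067 to -0.012 without 1 sample. Its exact permutation p was 0.0286 without WT replicate 1, a difference of -0.067, and 0.371 to 0.743 in the other alternatives. The value of 0.0286 is the smallest that the test can give without that sample. With the replicate number as a block, 922 genes and 3 members passed, but these numbers follow the order of deposition and pair no samples. Apart from the miR-21-/- title that joins 1 and 2, which matches no single WT sample, titles share 2 numbers between the genotypes, 3 (miR-21-/- replicate 2) and 4 (miR-21-/- replicate 3). The deviations of these pairs correlated at 0.14 and 0.032, and the samples were not treated as paired. A replicate block on the shared title numbers, added after seeing the data, gave 857 genes, 3 members and 13 other pathway genes.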
